A study of Drosophila melanogaster with 4 samples.

Results

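The X chromosome of Drosophila melanogaster was examined along its length for H3K9ac, histone H3 that carries an acetyl group on lysine 9. All regions that the authors listed as enriched on the X are described here and are called clusters. Replicate 1 held 1594 X clusters of 9104 in all, and replicate 2 held 1723 of 10049. A further list for the whole series held 2295 of 12182. The chromatin came from nuclei of heads of wild-type Oregon-R flies, with mixed adults as the stated stage. Of 4 libraries, 2 were ChIP and 2 were input, and an input was the background of the ChIP library with its number. The labels name no sex, treatment or age, and nothing states that the replicates are separate fly populations, so their spread may be technical. Heads hold photoreceptors, other neurons, glia, muscle and fat body, and a cluster can come from any of these. Fewer cells with the mark and less of it per cell cannot be told apart.

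H3K9ac is laid down by acetyltransferases and is known from promoters and the first part of active genes. Its clusters therefore tend to follow where active genes lie. The X is a single large arm with its telomere at low coordinates and its centromere at high ones. In males it is known to be bound by the dosage compensation complex, which acetylates another histone along active genes. These lists measure neither that complex nor its mark. Positions are those of FlyBase release 5. Gene coordinates of that release were not used here, so clusters are given by position without a gene.

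On the 22.4 Mb of the X, clusters covered 22.1% of the sequence in replicate 1 and 22.9% in replicate 2, or 22.5% ± 0.532 (SD, n = 2). There were 71.1 and 76.8 clusters per Mb. The median cluster measured 2486 bp and 2381 bp, and the median gap to the next cluster was 4301 bp and 4336 bp. The median gap was thus longer than the median cluster, but gaps varied widely. Their quartiles were 1440 and 11579 bp in replicate 1 and 1414 and 11109 bp in replicate 2. How many reads lie behind a cluster is unknown.

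Clusters of 2 to 5 kb were the most frequent kind, at 57.8% of the X clusters in replicate 1 and 57.6% in replicate 2. They held 55.7% and 57.1% of the clustered bases. Clusters under 2 kb made up 29.7% and 31.6%, and those of 10 kb or more 1.25% and 1.04%. The deposited score, of a scale that the sources do not state, was higher in longer clusters. Its median was 0.603 and 0.595 under 2 kb, and 0.888 and 0.831 between 2 and 5 kb. Between 5 and 10 kb it was 1.15 and 1.10, and at 10 kb or more it was 1.14 and 1.12. The medians of these longest classes lay close together, slightly lower in replicate 1 and slightly higher in replicate 2 at 10 kb or more.

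Gaps were far more unequal than clusters. Gaps under 1 kb were 19.8% of all X gaps in replicate 1 and 19.3% in replicate 2, but held 0.850% and 0.854% of the bases between clusters. Gaps of 40 kb or more were 6.21% and 4.99% of the gaps and held 41.4% and 35.3% of those bases. Long gaps, 99 in replicate 1 and 86 in replicate 2, therefore made up much of the X outside the clusters of the replicates. In the whole-series list, gaps of 40 kb or more were 2.27% of the gaps and held 22.5% of the bases between clusters.

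The X was then divided into fixed 1-Mb windows from base 1, which gave 22 full windows and a last piece of 422.8 kb, window 23. Cover was highest in window 2, X 1000001 to 2000000, with 28.5% in replicate 1 and 32.7% in replicate 2. It was next highest in window 11, X 10000001 to 11000000, with 29.4% and 29.2%, and in window 1, X 1 to 1000000, with 26.6% and 27.4%. The order of windows 2 and 11 turned between the replicates, so they do not differ beyond their spread. Windows 7 and 19 completed the highest 5, with means of 26.0% ± 0.0815 and 26.3% ± 2.71 (SD, n = 2).

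Mean cover was lowest in window 22, X 21000001 to 22000000, near the centromere-proximal end, with 14.2% in replicate 1 and 16.0% in replicate 2. Window 4, X 3000001 to 4000000, lay far from that end and had nearly the same cover, 15.2% and 15.7%. Window 21 had 14.3% and 18.8%, window 8 had 16.3% and 16.9%, and window 5 had 18.2% and 19.7%. Window 10 came next, with 19.4% and 19.0%, and was lower than window 5 in replicate 2. Windows 21 and 22 were neighbours, as were windows 4 and 5, so low cover occurred in separate parts of the X. The highest and lowest windows of each replicate differed by a factor of 2.07 in replicate 1 and 2.08 in replicate 2. They were windows 11 and 22 in replicate 1, and windows 2 and 4 in replicate 2.

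**Figure D1:**
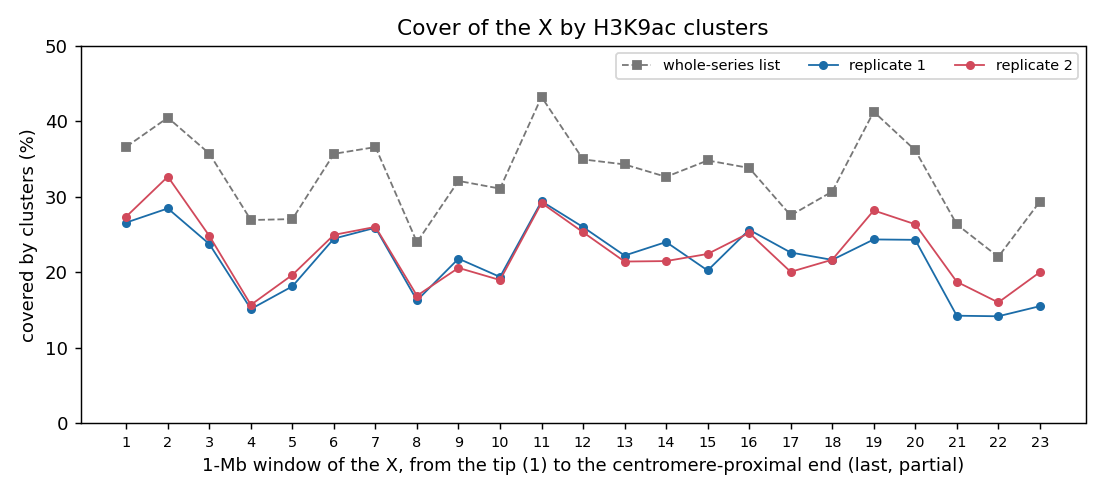
Share of each 1-Mb window of the X covered by H3K9ac clusters (vertical axis, %) in replicate 1, replicate 2 and the whole-series list, by window number. Both replicates are low in windows 4, 8, 21 and 22 and high in windows 1, 2 and 11, and the whole-series list lies above them in each window.

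The profile had no steady slope from tip to centromere. Spearman's correlation between cover and window number was -0.29 in replicate 1 and -0.16 in replicate 2 over the 22 full windows. Between a window and the next it was 0.22 and 0.23 over 21 pairs. Windows 1 to 7 had 23.8% ± 0.884 covered, windows 8 to 14 had 22.4% ± 0.528 and windows 15 to 22 had 21.6% ± 1.01 (SD, n = 2). These differences were small beside those between single windows. These values describe windows of the same chromosome, which are not replicates.

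In 500-kb windows, the first Mb split sharply. Cover of X 1 to 500000 was 15.9% in replicate 1 and 14.8% in replicate 2. Cover of X 500001 to 1000000 was 37.4% and 40.0%, the highest among the 44 full 500-kb windows. Window 8 split in a like manner, with 8.04% and 7.73% in X 7000001 to 7500000 and 24.5% and 26.1% in X 7500001 to 8000000. In window 22, X 21500001 to 22000000 had 7.01% and 7.22%, the lowest, against 21.4% and 24.8% in X 21000001 to 21500000. Windows 8 and 22 thus each joined a piece of low cover in both replicates to a piece near the average of the X. The low piece of window 8 still held 14 clusters in each replicate, and that of window 22 held 11 and 12. Window 4 was low throughout, with 15.7% and 16.0% in its first 500 kb and 14.6% and 15.4% in its last.

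Among 224 full bins of 100 kb, 5 had no covered base in either replicate and 3 were covered to more than 50% in both. The densest bin was X 12100001 to 12200000, with 57.4% in replicate 1 and 57.8% in replicate 2. Window 13, which holds it, had an ordinary cover of 22.2% and 21.4%. Spearman's correlation between the replicates over the bins was 0.94.

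Cluster number followed a similar course to cover. Window 8 had the fewest in both replicates, with 48 clusters in replicate 1 and 53 in replicate 2. Window 11 had the most in replicate 1, with 95 against 85 in window 19, and window 19 had the most in replicate 2, with 103 against 94. Across the full windows, Spearman's correlation between cover and number was 0.88 and 0.90. Between cover and median length it was 0.56 and 0.40, so cover followed cluster number more closely than length. Cover contains both number and length, so these values describe how it was made up.

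Length and score went together along the X. Window 16, X 15000001 to 16000000, had the longest clusters, whose median was 2920 bp in replicate 1 and 2807 bp in replicate 2. Its median scores, 0.991 and 0.858, were high too, but window 12 had 0.959 and 0.888, so that their order turned between the replicates. Window 4 was the opposite case, with medians of 2237 bp and 2036 bp and scores of 0.701 and 0.673. Window 4 was therefore low in cover, length and score alike. Window 8, with the fewest clusters, had medians of 2630 bp and 2596 bp and scores of 0.791 and 0.783, close to the X medians of 0.804 and 0.751. Over the full windows, Spearman's correlation between median length and median score was 0.81 and 0.85. In the replicates, window 11 had many clusters of short length and modest score, with medians of 2279 bp and 2346 bp and scores of 0.735 and 0.706. Its median length in the whole-series list was 2974 bp, above the 2437 bp of the whole X in that list.

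**Figure D2:**
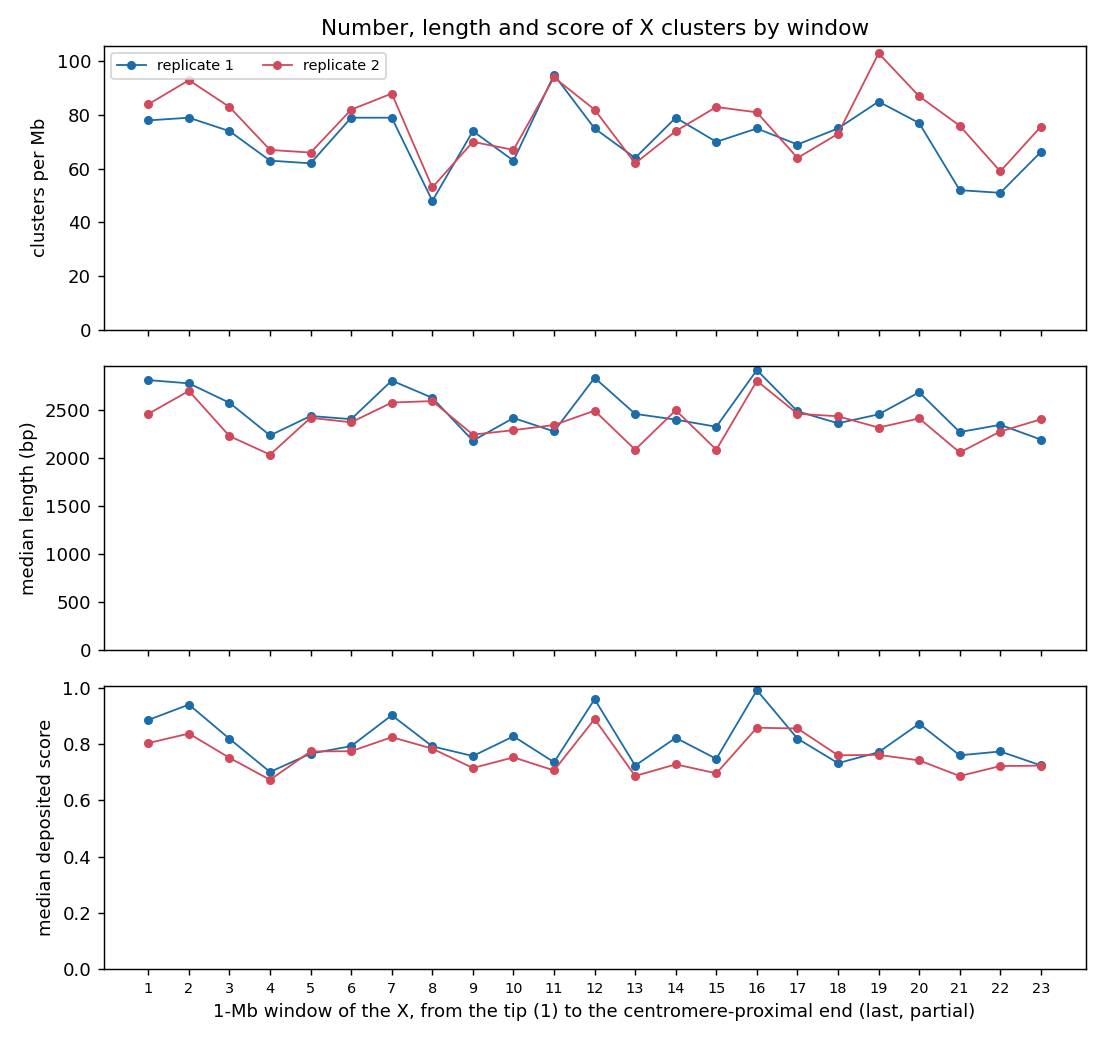
Clusters per Mb, median cluster length (bp) and median deposited score of the X clusters by 1-Mb window number in replicates 1 and 2. Window 8 has the fewest clusters, at 48 and 53, while its median length lies above that of the whole X and its score is ordinary. Window 4 is low in all 3 panels.

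The lower cover of single windows went with long cluster-free stretches. The X held 76 stretches of at least 40 kb without a cluster in either replicate, which together measured 5.26 Mb or 23.5% of its length. They filled 48.5% of window 8 (7 stretches), 44.2% of window 22 (3 stretches) and 39.6% of window 4 (6 stretches). They filled none of window 19 and 4.06% of window 11. Across the full windows, Spearman's correlation between this share and mean cover was -0.70, whereas Spearman's correlation between the median gap and cover was -0.09 in replicate 1 and -0.16 in replicate 2. The relation with the stretches is partly built in, since sequence in a stretch cannot be covered.

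**Figure D3:**
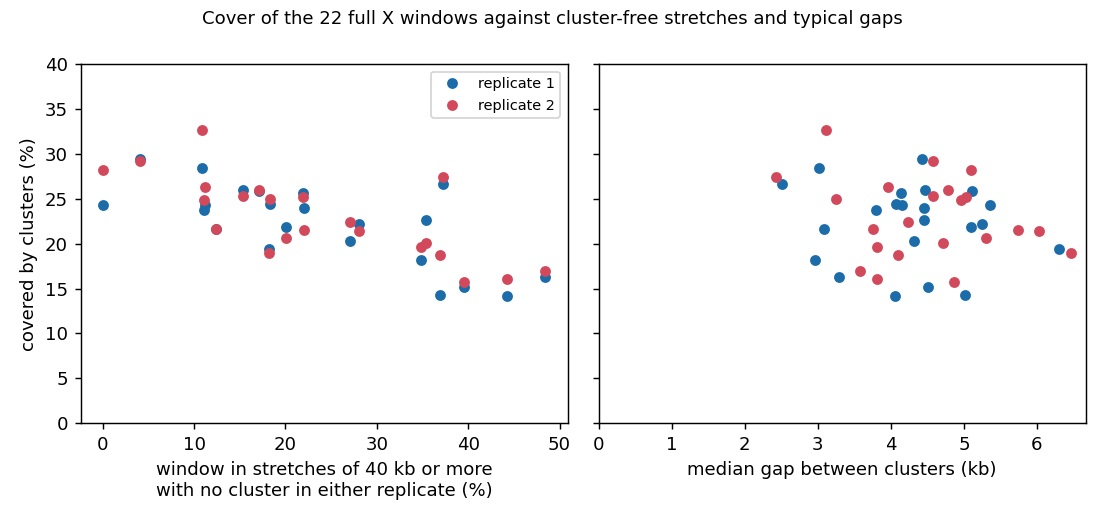
Cover of the 22 full X windows (vertical axis, %) against the share of the window in stretches of 40 kb or more with no cluster in either replicate (left, %) and against the median gap (right, kb), with 1 point per window and replicate. Cover falls from left to right in the left panel (Spearman's correlation -0.70 for the mean cover) and shows little order in the right panel.

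Outside these stretches, cover ranged from 23.5% in window 10 to 43.0% in window 1, with a median of 29.2% (means of both replicates). Window 8 then had 32.2%, above that median, and window 22 had 27.1%. Window 4 stayed low at 25.5%. Window 1 combined stretches over 37.2% of its length with the shortest median gaps of the full windows, 2508 bp in replicate 1 and 2424 bp in replicate 2. Window 10 had the longest, 6307 bp and 6464 bp.

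The longest stretch was X 21502024 to 21845696, of 343.7 kb, in which the whole-series list also held 0 clusters. The second was X 190696 to 366575, of 175.9 kb, near the tip. The next were X 3863481 to 3992730 of 129.3 kb, X 20396852 to 20525412 of 128.6 kb and X 15999047 to 16107589 of 108.5 kb. X 4838300 to 4942314, X 20796205 to 20897989 and X 39276 to 139405 measured between 100.1 and 104.0 kb. The last of the 10 longest were X 6267833 to 6362585 of 94.8 kb and X 7408908 to 7501678 of 92.8 kb. Of the 76 stretches, 8 had no cluster of the whole-series list. Single clusters lay close to both ends of the X sequence in these coordinates. The first began at 11430 in replicate 1 and 11432 in replicate 2, and the last ended at 22416985 and 22416840.

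For comparison, stretches of at least 40 kb numbered 3.39 per Mb on the X, while 3R, 2R, 3L and 2L, the 4 large arms of the autosomes, had between 2.04 and 2.56 per Mb. Those of at least 100 kb numbered 0.357 per Mb on the X and between 0.179 and 0.489 per Mb on those arms. The X value lay above the range of the arms at the lower limit and inside it at the higher one. The spread of window cover, as SD over mean, was 0.199 and 0.196 on the X and from 0.217 to 0.305 on the arms. Low windows at the centromere-proximal ends of 2L, 2R and 3L widen the latter. Of all 117 full windows of the 5 arms, the third with the lowest mean cover, at most 24.3%, held 13 of the 22 X windows, and the third with the highest cover held 1. No test of these differences between arms was made, since each arm has 2 values.

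The replicates were next compared along the X. A cluster had a partner where at least 1 bp of it was covered in the other replicate. Of the replicate 1 clusters on the X, 1378 had a partner (86.4%, exact Clopper-Pearson 95% interval 84.7 to 88.1). Of the replicate 2 clusters, 1400 had one (81.3%, interval 79.3 to 83.1). The intervals cover counting error only and treat clusters as independent. The replicates shared 4.16 Mb, with a Jaccard index (shared over total covered bases) of 0.704. On the large autosome arms, the share for replicate 1 ranged from 90.9% to 93.0%, that for replicate 2 from 80.2% to 83.7% and the Jaccard index from 0.734 to 0.760. The X thus lay below the 4 arms for replicate 1 and for the Jaccard index, and among them for replicate 2. These values were not adjusted for cover, which in replicate 2 was 22.9% on the X and from 26.1% to 31.1% on the arms.

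Agreement varied along the X. The Jaccard index was highest in window 12, at 0.787, and lowest among full windows in window 4, at 0.583, with a median of 0.710. Window 10 had low shares on both sides, with 69.8% of the replicate 1 and 68.7% of the replicate 2 clusters partnered. Window 21, X 20000001 to 21000000, was one-sided, with 96.2% of 52 replicate 1 clusters but 65.8% of 76 replicate 2 clusters. Window 17 leaned the other way, with 82.6% of 69 and 95.3% of 64. Spearman's correlation between mean cover and the Jaccard index was 0.40 over the full windows.

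**Figure D4:**
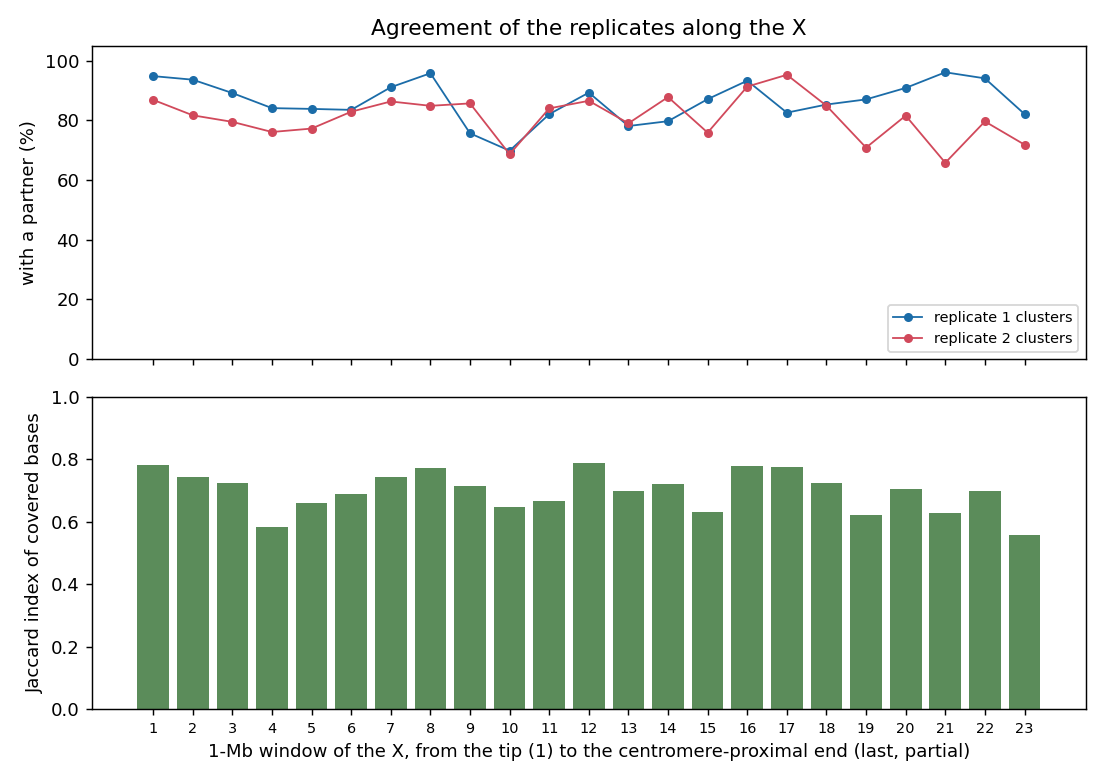
Share of X clusters with a partner in the other replicate (top, %) and Jaccard index of covered bases (bottom) by 1-Mb window number. Window 21 has 96.2% and 65.8% of its replicate 1 and 2 clusters partnered, and the Jaccard index of the full windows lies between 0.583 and 0.787.

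The excess of cover in replicate 2 was not even along the X. Replicate 2 had more cover in 14 of the 22 full windows and less in 8, and all 8 lay in windows 9 to 17, X 8000001 to 17000000. Within that stretch window 15 was the exception, with 20.3% in replicate 1 and 22.4% in replicate 2. The limits of that stretch were read from these differences, so its totals are a description of them. Cover there was 23.5% in replicate 1 and 22.8% in replicate 2. By number, replicate 2 had more clusters in the same stretch, 677 against 664, and more clusters in 16 of the 22 windows. Window 15, the exception in cover, held 70 in replicate 1 and 83 in replicate 2. Replicate 2 had fewer clusters in windows 9, 11, 13, 14 and 17 of the stretch, and in window 18 beside it. In windows 10, 12 and 16 it had more clusters but less cover. Cluster number thus showed the same grouping in part. The differences in cover ran from -2.56 percentage points in window 17 to 4.49 in window 21. In windows shifted by 500 kb, added after seeing the data, 10 of 21 had less cover in replicate 2, and 7 of the 8 shifted windows inside that stretch were among them. With clusters under 500 bp apart merged, 9 of 22 windows had less, and the addition was window 18. In the upper 50% of the X clusters by score, 11 of 22 windows had less cover in replicate 2, from window 1 to window 20, and 7 of them lay in windows 9 to 17. The grouping in the middle was therefore weaker among high-scoring clusters.

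On the large autosome arms, 88 of 95 full windows had more cover in replicate 2, against the 14 of 22 on the X. The median difference was 0.523 percentage points on the X and between 2.01 and 2.92 on the 4 arms. Bases covered in replicate 1 alone were 3.53% of the X and from 2.43% to 2.71% of the arms. Those covered in replicate 2 alone were 4.29% of the X and from 4.41% to 5.51% of the arms. These are differences between 2 libraries of 1 group, and no test of them was made.

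**Figure D5:**
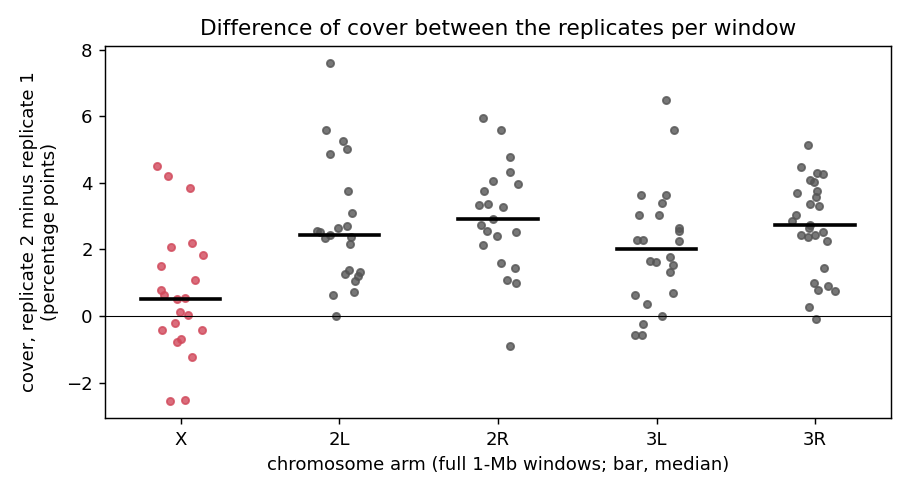
Cover of each full 1-Mb window in replicate 2 minus replicate 1 (percentage points) for the X and the large autosome arms; points are windows and bars are medians. On the X, 8 of 22 windows lie below 0, and on the other arms 7 of 95.

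Where a cluster of each replicate overlapped just the other, positions and scores were close. There were 1182 such pairs on the X, or 74.2% of the replicate 1 and 68.6% of the replicate 2 clusters. Starts differed by a median of 132.5 bp and ends by 126 bp, and both edges lay within 500 bp in 72.8% of the pairs. Clusters that were split or had no partner are left out of these pairs, so the closeness is partly built in. Between the replicates, Spearman's correlation of the scores was 0.86 and Pearson's r was 0.91, which describes the clusters and assumes 1 scale in both lists. The correlation within a full window ran from 0.67 in window 15 to 0.92 in window 1. Replicate 1 had the higher score in 65.1% of pairs. Clusters without a partner, 216 and 323, were shorter, with a median of 1550 bp in the first replicate and 1624 bp in the other. Partnered clusters had 2708 bp and 2679 bp. Median scores were 0.620 and 0.650 without a partner and 0.855 and 0.803 with one.

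Without a partner, the highest scores on the X in replicate 1 were 1.03 at X 3623289 to 3625312, 1.01 at X 19397076 to 19399806 and 0.901 at X 17373036 to 17374424. In replicate 2 they were 0.990 at X 9988672 to 9990012, 0.948 at X 11009136 to 11010540 and 0.945 at X 5356526 to 5358645. All 6 had a counterpart in the whole-series list, where their scores lay between 0.467 and 0.644. The scores of the lists may be on different scales.

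High-scoring clusters were spread along the whole X. The highest-scoring cluster of each window in the whole-series list scored between 1.33, in window 13, and 2.29, in window 21. Window 21 was thus among the least covered windows and held the cluster with the highest score of that list, X 20105288 to 20108334, which scored 2.35 in replicate 1 and 2.33 in replicate 2. In both replicates the highest score on the X belonged instead to X 6187462 to 6191946 in window 7, with 2.46 and 2.34. X 7786104 to 7790476 in the sparse window 8 scored 2.18 and 2.04. X 22404410 to 22407404, in the last piece of the X, scored 2.05 and 1.96. The fifth, X 5421520 to 5422642, had 1.90 in that list but no counterpart in replicate 1 or 2. It lay inside the cluster-free stretch X 5412477 to 5452833 and measured 1123 bp, less than the shortest X cluster of replicate 1 (1306 bp) or replicate 2 (1302 bp).

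In the whole-series list, the 5 longest clusters lay in windows 2 to 14. The longest was X 1304978 to 1328010, of 23.0 kb, which was split into 2 clusters in each replicate. X 13457086 to 13479374 spanned 22.3 kb as 3 clusters in each, and X 12097184 to 12118816 spanned 21.6 kb as 2 in each. X 2992738 to 3014192, of 21.5 kb, was 4 clusters in each replicate, and X 6681988 to 6700258, of 18.3 kb, was 2 in replicate 1 and 3 in replicate 2. The longest single cluster of both replicates was the same region, X 12097228 to 12115441 in replicate 1, of 18.2 kb, and X 12097271 to 12114762 in replicate 2, of 17.5 kb. Most of it lies in the densest 100-kb bin. Its scores were 1.31 and 1.33, well below those of the highest-scoring clusters, which measured 3.00 to 4.49 kb in the whole-series list where both replicates held them.

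Other long clusters were found whole in 1 replicate and in pieces in the other. X 9232065 to 9247629, of 15.6 kb, and X 9045240 to 9059374, of 14.1 kb, were single clusters in replicate 1 and 3 clusters each in replicate 2. X 422576 to 436436, of 13.9 kb, was single in replicate 2 and 2 clusters in replicate 1. In all, 87 X clusters of replicate 1 overlapped 2 or more of replicate 2, and 66 of replicate 2 overlapped 2 or more of replicate 1.

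Closely spaced clusters were examined as runs with gaps under 2 kb. By this measure 46.9% of the X clusters stood alone in replicate 1, 47.9% did in replicate 2, and the whole-series list had 33.8%. Runs of 5 or more clusters numbered 10 and 11 in the replicates and 56 in the whole-series list. The richest run of replicate 1 had 7 clusters over 30.9 kb at X 2992761 to 3023693, and that of replicate 2 had 9 over 56.3 kb at X 12097271 to 12153523. The run X 1751529 to 1785542 of replicate 1 held 6 clusters with a median score of 1.53. Replicate 1 covered 83.8% of it and replicate 2 covered 75.9%.

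The 5 richest runs of the whole-series list were of another kind. X 8853962 to 8892126 held 11 clusters that covered 75.9% of it, but the replicates covered 15.5% and 20.4%. X 15411946 to 15448568 also held 11, with 80.7% covered against 39.3% and 47.0%. The runs of 10 clusters, X 10172828 to 10214688, X 19262362 to 19303608 and X 14213992 to 14251524, were covered to between 77.1% and 87.3%. The replicates covered between 36.2% and 49.1% of them. Median scores in these 5 runs lay between 0.402 and 0.546, against an X median of 0.541 in that list. The replicate lists thus held these runs in part.

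The whole-series list marked 589 X clusters (25.7%) that overlapped neither replicate and 1245 (54.2%) that were found in both. A further 190 were found in replicate 1 alone and 271 in replicate 2 alone. These shares were taken on the X only, so whether they differ from the rest of that list was not tested. Those in neither had a median length of 1295 bp, and 306 of them were shorter than the shortest X cluster of replicate 1. Their share ran from 15.6% in window 17 to 37.4% in window 13. In the stretch X 13740577 to 13815027, which was free of clusters in both replicates, the whole-series list placed 13 entire clusters of 1007 to 1779 bp with scores of 0.294 to 0.496. Of the 589, 6 scored above 1. The highest after X 5421520 to 5422642 were X 6229164 to 6230188 with 1.82 and X 196524 to 197604 with 1.44, of 1025 and 1081 bp. That list is not independent of the replicates.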

How the data were processed

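H3K9ac ChIP-seq was analysed from 3 deposited cluster lists, 1 for each of 2 ChIP replicates and 1 for the whole series. Reads were aligned with Bowtie 0.12.7, per the submitters' processing notes, and each input is named in the labels as the background of a ChIP list. Coordinates are FlyBase release 5, per the file headers. The authors deposited start and end positions in base pairs and 1 score per cluster. The caller, its thresholds, the score's scale and the way in which replicates were joined are not stated in the labels or headers, and the depth is unknown.

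Rows on the X were taken without a filter, and a region named as depleted was left out. Samples were grouped by title. Clusters and gaps were assigned to fixed 1-Mb windows by their midpoints, and cover was counted per base. Means carry the SD over 2 replicates. No test was made, since there is 1 group and windows are not replicates, and no list of the input libraries was analysed. The named regions were the highest-scoring, longest and unpartnered clusters, the longest cluster-free stretches, the richest runs and the extreme windows. The members, lists and rules were chosen with earlier results of these data known. Overlap, window and gap counts were checked on simulated data. Alternatives were each replicate alone, the whole-series list, merging, the upper 50% by score, a reciprocal overlap and other windows. Scripts ran under Python 3.11.15 with scipy 1.17.1 for rank correlations and intervals, numpy 2.4.6 and pandas 2.3.3 for counts, and matplotlib 3.10.9 for plots.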

Additional observations from a re-analysis of the deposited data

How the results depend on the processing

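With each replicate alone, the covered share of the X ranged from 22.1% to 22.9%, clusters per Mb from 71.1 to 76.8, the median length from 2381 to 2486 bp, the median gap from 4301 to 4336 bp and the median score from 0.751 to 0.804. The highest window cover ranged from 29.4% to 32.7% and the lowest from 14.2% to 15.7%. In the whole-series list, cover was 32.9%, with 102.4 clusters per Mb, a median gap of 2558 bp, a median score of 0.541 and window cover from 22.1% to 43.2%. Merging clusters under 500 bp apart gave 65.7 clusters per Mb, a median gap of 5258 bp and clusters of 2613 bp (median). The upper 50% by score gave 14.8% cover, 37.0 clusters per Mb, a median gap of 8953 bp, clusters of 3365 bp (median) and window cover from 7.05% to 24.4%, which fewer clusters lower by construction. A reciprocal overlap of 50% lowered the partnered shares to 78.2% and 72.4%. Shifted windows gave cover from 17.5% to 35.2%, highest in X 500001 to 1500000 and lowest in X 3500001 to 4500000, and 500-kb windows from 7.11% to 38.7%. Spearman's correlation of window cover between the replicates was 0.92, and between 0.88 and 0.93 over 4 alternatives. The Jaccard index was 0.707 with merging and 0.688 in the upper 50%. No paired analysis was possible because replicate numbers are shared by ChIP and input alone, and no input list was analysed. The depth is unknown, and with it the precision of each window's value.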
